A study of Mus musculus and Rattus norvegicus with 6 samples.

Results

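The PER and DBP arm of the circadian clock comprises the 10 genes Dbp, Tef, Hlf, Per1, Per2, Per3, Ciart, Nr1d1, Nr1d2 and Bhlhe41, taken as every probe set annotated to these symbols. On the mouse arrays all 10 genes were annotated, by 23 of 45037 probe sets, among 18193 named genes. On the rat arrays 9 genes were annotated, by 18 of 31042 probe sets, among 14217 named genes, and no rat probe set was named Ciart. Liver RNA came from male animals aged 20 weeks, taken 6 hours after an intraperitoneal injection. The mouse groups, on a C57/BL6J background, were Lepob/Lepob given recombinant murine leptin, Lepob/Lepob given saline, and WT control littermates given saline. The rat groups, on an F344/NSlc background, were Lepmkyo/Lepmkyo given the same leptin, Lepmkyo/Lepmkyo given saline, and WT control littermates given saline. Both alleles abolish functional leptin, the satiety hormone of adipose tissue, so the homozygotes overeat and become obese. WT animals given leptin were not analysed here. Each group was 1 array, so no p-value is given, and whether an array carried 1 animal or a pool was not stated. The leptin dose is written as 1 microg/mg in the design text and is not interpreted. Titles and source fields of the mutant rats spell the genotype in conflicting ways, and the spelling of their descriptions is used. No label gives the hour at which any liver was taken.

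The hepatic clock is a transcriptional feedback loop. CLOCK and BMAL1 (encoded by Arntl) bind E-boxes and drive the Per and Cry genes, whose products return to the nucleus and repress them, and the same E-box drive sets the rhythm of Dbp, Ciart and the Nr1d genes. The PAR bZIP factors DBP, TEF and HLF activate genes through D-boxes, while the REV-ERB receptors encoded by Nr1d1 and Nr1d2 repress Arntl through ROREs. Transcripts of this arm therefore peak at hours when those of Arntl, Npas2 and Nfil3 are low, and in liver their timing follows both light and meals.

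Values are MAS5 signal intensities on a linear scale. A signal floor, set at the median value of each platform, stood at 82.7 in mice and 97.0 in rats, lower signals were raised to it before a ratio was taken, and a ratio with an array under it is a bound. Median signals were 77.0 to 91.9 on the mouse arrays and 93.6 to 99.3 on the rat arrays. Log2 signals correlated across probe sets at 0.991 between the leptin and saline mutants in mice and 0.988 in rats, and at 0.949 and 0.962 between the saline mutants and WT. The pooled SD of log2 ratios between probe sets of 1 gene, the available measure of technical error, was 0.45 for the mouse genotype comparison, 0.26 for mouse leptin, 0.44 for the rat genotype comparison and 0.25 for rat leptin. Variation between animals does not enter it. All 7 annotated hepatocyte markers were above the floor on all 6 arrays. Their summed signal was 248944 in leptin-injected and 243541 in saline-injected Lepob/Lepob mice, against 308734 in WT mice. For the saline pair 5 were lower in the mutant, and 2, Apob and Ass1, were higher. Markers of other cells varied as well. The 3 neutrophil markers, all above the floor in mice, summed to 1639 and 613 in the leptin and saline mutant mice, against 303 in WT mice. In the saline mutant S100a8 and S100a9 were higher than in WT, and Ngp was lower, at 94.0 against 120.6. The 5 stellate markers, 4 or 5 of them above the floor in rats, summed to 5972 and 5818 in the rat mutants, against 1939 in WT rats. Most of that sum was Col3a1, at 5001.6 and 4913.8 in the mutants, against 1265.5 in WT, and the median log2 ratio of the 5 was 0.11 for the saline pair. The adipocyte genes Adipoq and Lep were under the floor on all 6 arrays. The part of cell composition in the clock gene values was not tested, and in bulk RNA fewer cells of a type and less RNA per cell cannot be told apart.

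Saline-injected Lepob/Lepob livers were compared with WT livers to see how the arm stood in leptin deficiency without leptin injection. In this comparison 7 of the 10 genes were higher in the mutant by 2-fold or more and 0 were lower by as much. Dbp was 24.7-fold and Per2 6.43-fold higher. Per3 was no less than 8.78-fold and Ciart no less than 6.08-fold higher, and as bounds these have no place in the order. With the floor at the 25th percentile the log2 ratios were 4.78 for Per3, 4.62 for Dbp and 2.68 for Per2. Ciart was then at 4.38, still a bound because its WT signal lay under that floor as well. Tef was 2.90-fold and Per1 2.23-fold higher, Hlf stood at the 2-fold threshold, the REV-ERB genes differed by less than 2-fold, and Bhlhe41 was not above the floor. Among all 11956 genes measured, the share 2-fold or more above WT was 4.46% and the share 2-fold or more below was 3.71%. Per3 and Ciart entered only through their mutant signals, because the WT array was under the floor for both. Among the 7 genes above the floor on both arrays, 5 reached 2-fold, and their median log2 ratio was 1.16, against -0.03 over all genes.

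The PAR bZIP factors spanned a wide range, with Dbp far above WT and Tef and Hlf at smaller folds. Dbp, which was found as an activator of the albumin promoter, is read by probe sets 1438211_s_at and 1418174_at. On the brighter of these it had signals of 7858.7 in leptin-injected and 6612.5 in saline-injected Lepob/Lepob mice, against 268.2 in WT mice. The second gave 3366.6 and 3205.8 in the mutants, against 137.7 in WT. Both probe sets thus placed the mutant arrays close together and far above WT, with genotype log2 ratios of 4.62 and 4.54. In the saline comparison Dbp ranked 10 among 11956 genes from the highest ratio down, with bounded genes placed at their bounds. Its relative Tef, on probe set 1424175_at, had 4186.1 and 3791.0 in the leptin and saline mutants, against 1307.9 in WT, a log2 ratio of 1.54 for the saline pair. The dimmer Tef probe sets gave less: 1438033_at had 196.0 and 147.4 in the mutants, against 127.9 in WT (log2 ratio 0.20), and 1450184_s_at reached the floor on 1 array. With the median over its probe sets the Tef ratio was 0.20, which ends the 2-fold call. Hlf, the remaining PAR bZIP factor, had 1062.3 and 1060.2 in the mutants, against 529.3 in WT, on 1434736_at. Its log2 ratio of 1.00 was just inside 2-fold, and without a floor it was 0.98. A second Hlf probe set, 1434735_at, had 881.7 and 1090.2, against 480.3 in WT, a log2 ratio of 1.18 between the saline animals.

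The period genes encode the repressors that, with the cryptochromes, shut off CLOCK and BMAL1. Per1, which also responds acutely to glucocorticoid and cAMP signals, had 546.0 and 352.7 in the leptin and saline Lepob/Lepob mice, against 157.9 in WT, on its single probe set 1449851_at. The saline pair differed 2.23-fold. Per2 had 749.9 and 826.4 in the mutants, against 128.6 in WT, on 1417602_at. A second probe set of Per2, 1457350_at, gave 239.6 and 220.2 in the mutants, against 67.2 in WT, a log2 ratio of at least 1.41, and another, 1417603_at, was under the floor on all 3 arrays. Per3, the paralogue least required for rhythm generation in mice, had 590.4 and 726.5 in the mutants, against 26.5 in WT, on 1421087_at. Of its 6 probe sets, 4 were above the floor in both mutants and under it in WT, with bounds on the log2 ratio between 1.63 and 3.14. The other 2 were under the floor throughout. On every period gene probe set that reached the floor, both mutant arrays were above the WT array.

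Ciart encodes CHRONO, a repressor that binds BMAL1. Its probe set 1435188_at had 418.2 in leptin-injected and 502.9 in saline-injected Lepob/Lepob mice, against 17.8 in WT. The WT signal was among those where the array cannot resolve a level, so the 6.08-fold for the saline pair is a lower bound. With the floor at the 75th percentile the bounds of Per3 and Ciart fell under 2-fold, at log2 ratios of 0.91 and 0.38, as a higher floor must lower a bound.

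Promoter sequences are shown for Ciart, Per3 and Per1, which were 2-fold higher in the saline mutant and carry a searched clock motif within the window. They come from the RefSeq table of mouse build GRCm38.p6, which spans 250 bases before to 50 after an annotated start and held 11 starts of 9 members, and are written 5′ to 3′ on the gene's strand with motif matches in capitals. The motifs, searched on both strands, were the E-box CACGTG, the E-prime box CACGTT, the D-box TTATGTAA or TTACGTAA, and the RORE. None of these motifs overlapped another in the 3 sequences. The windows were chr3:95882179-95882478 on the minus strand for Ciart, chr4:151044616-151044915 on the minus strand for Per3, and chr11:69098699-69098998 on the plus strand for Per1.
Ciart: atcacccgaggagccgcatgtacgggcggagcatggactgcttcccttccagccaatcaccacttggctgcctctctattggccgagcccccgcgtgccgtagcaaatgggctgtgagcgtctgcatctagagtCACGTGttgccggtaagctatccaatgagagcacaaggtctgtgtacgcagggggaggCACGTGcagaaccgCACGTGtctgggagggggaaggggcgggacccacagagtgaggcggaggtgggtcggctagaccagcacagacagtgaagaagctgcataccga
Per3: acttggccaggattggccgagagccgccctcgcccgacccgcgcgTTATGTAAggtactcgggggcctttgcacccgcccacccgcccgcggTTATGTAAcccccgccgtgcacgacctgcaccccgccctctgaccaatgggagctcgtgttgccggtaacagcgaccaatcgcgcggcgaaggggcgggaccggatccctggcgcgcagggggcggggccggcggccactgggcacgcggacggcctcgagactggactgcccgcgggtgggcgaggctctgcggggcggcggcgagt
Per1: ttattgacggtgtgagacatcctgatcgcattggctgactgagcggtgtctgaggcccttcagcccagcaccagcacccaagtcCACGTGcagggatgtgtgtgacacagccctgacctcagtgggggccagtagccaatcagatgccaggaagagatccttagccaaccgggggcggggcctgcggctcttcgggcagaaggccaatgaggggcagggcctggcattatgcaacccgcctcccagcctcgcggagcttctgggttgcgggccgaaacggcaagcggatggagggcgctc
The Ciart window held 3 E-boxes, at 116, 58 and 44 bases before the start, and the Per1 window 1 E-box at 166 bases before it. The Per3 window held 2 D-boxes, at 205 and 158 bases before the start, the element to which DBP, TEF and HLF bind. An E-box occurred in 7.15% of all 32851 promoters of the table, a D-box in 1.06%, an E-prime box in 4.68% and a RORE in 0.384%. Over the 11 member windows, 5 held an E-box (Ciart, Per1, Bhlhe41 and both Tef starts), 1 a D-box, 1 an E-prime box (Nr1d1) and 0 a RORE. The windows of Dbp, Hlf and Nr1d2 and the other Per1 start held none of the motifs. A match describes the letters and is not evidence of binding, and the windows without a match say nothing of the factor.

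The REV-ERB genes differed less than the rest of the arm. Nr1d1 had 89.3 and 195.4 in the leptin and saline Lepob/Lepob mice, against 157.8 in WT, on its single probe set 1426464_at. The saline mutant was thus 1.24-fold higher than WT, within the spread between probe sets. Nr1d2 had 6559.3 and 6670.0 in the mutants, against 4062.4 in WT, on 1416958_at, a difference of 1.64-fold for the saline pair. Its second probe set, 1416959_at, ran the other way, with 57.9 and 51.0 in the mutants, against 131.6 in WT, a log2 ratio of -0.67 bounded by the floor. Bhlhe41 (DEC2), an E-box repressor, had signals of 6.7 to 19.9 over its probe sets and the 3 mouse arrays, all under the floor.

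**Figure D1:**
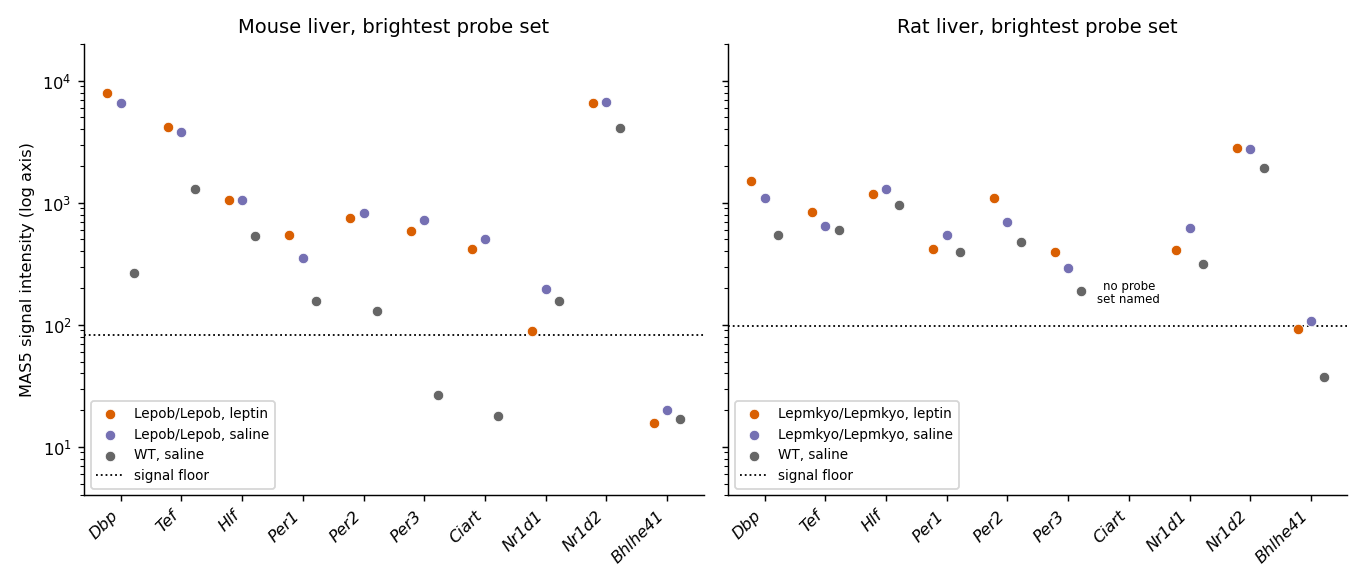
Signal of the brightest probe set of each gene on each array (log axis), with mice on the left and rats on the right, 1 point per array and the dotted line at the signal floor. In mice both Lepob/Lepob arrays lie above WT for every gene but Nr1d1 and Bhlhe41, and the WT points of Per3 and Ciart lie under the floor. Heights of different genes come from different probe sets and are not comparable.

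Leptin injection in Lepob/Lepob mice was meant to reveal early responses before food intake or weight changed. Nearly all of the arm differed little between the leptin and saline mutants: 0 members reached 2-fold upward and 1, Nr1d1, reached it downward. The share of all 11536 genes at these folds was 0.182% higher and 0.243% lower. The median log2 ratio of the 9 measured members was -0.02, against -0.0022 over all genes, with 4 above 0 and 5 below. Nr1d1, with 89.3 in the leptin and 195.4 in the saline mutant, was 2.19-fold lower and ranked 14 from the lowest ratio up. Its signals stood near the floor of 82.7, and with the floor at the 75th percentile the gene was no longer measured. Per1 had the largest positive ratio of the arm, 546.0 after leptin against 352.7 after saline, or 1.55-fold, at rank 197 from the top. Dbp was 1.19-fold higher on its brighter probe set and had a log2 ratio of 0.07 on the other. On their brightest probe sets Per3 and Ciart were 1.23-fold and 1.20-fold lower, and Per2 was 1.10-fold lower. Tef was 1.10-fold higher, and Hlf and Nr1d2 were within 1.02-fold. On the brightest probe sets, Nr1d1 (-1.13), Per1 (0.63), Per3 (-0.30) and Ciart (-0.27) had log2 ratios wider than the pooled spread of 0.26 between probe sets. The other 5 did not, although the Tef and Hlf probe sets at 0.41 and -0.31 did.

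The leptin-injected Lepob/Lepob array can also be set directly against WT, a comparison that shares its arrays with both of the above. Dbp differed 29.3-fold, Per2 5.83-fold, Per1 3.46-fold, Tef 3.20-fold and Hlf 2.01-fold, all upward, and Per3 and Ciart by no less than 7.14-fold and 5.06-fold. With the floor at the 75th percentile 4 of these fell under 2-fold, at log2 ratios of 0.96 for Per2, 0.50 for Per1, 0.62 for Per3 and 0.12 for Ciart, and Hlf did so with the median over probe sets, at 0.94, and without a floor, at 0.98. These 7 genes at 2-fold stood beside 3.98% of all 11958 genes higher and 3.46% lower. On the log2 scale, the leptin array lay nearer to the saline mutant than to WT for 8 of the 10 members. The exceptions were Nr1d1, which lay below WT at 1.77-fold lower, and Bhlhe41, which was under the floor on all 3 arrays. The share over all genes is not given here. Across probe sets the leptin array correlated at 0.991 with the saline mutant and 0.954 with WT, so the count is not read as a trait of the arm.

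**Figure D2:**
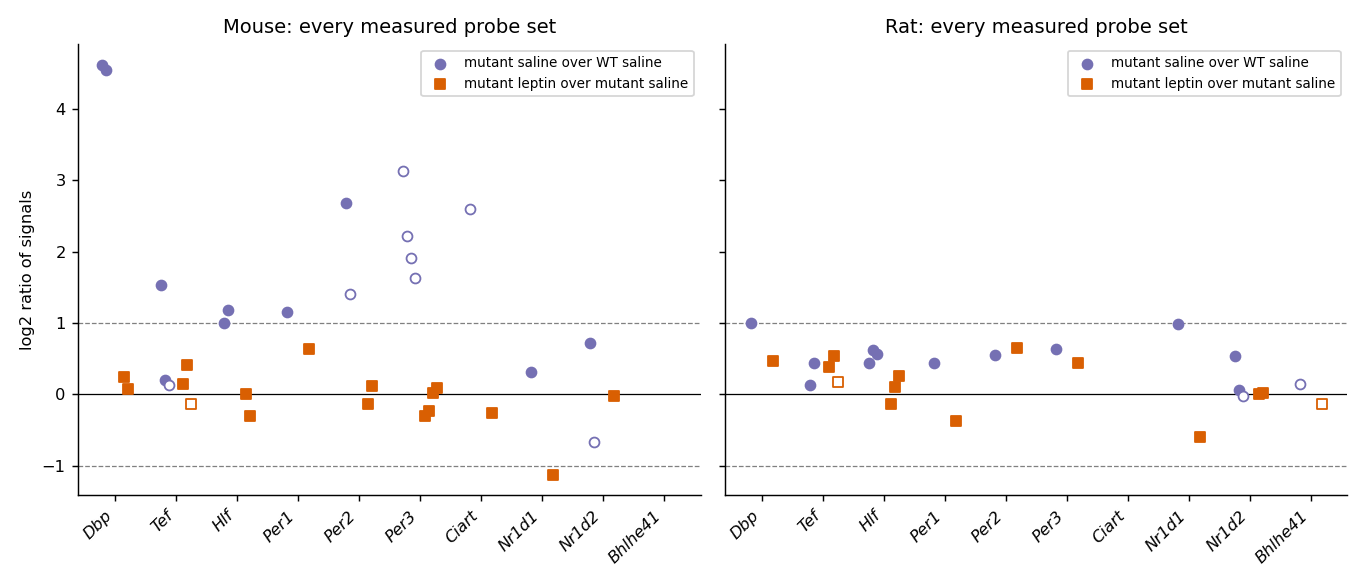
Log2 ratio of every measured probe set of each gene, for mutant saline over WT saline (circles) and mutant leptin over mutant saline (squares), with mice on the left and rats on the right. Open symbols are bounds with 1 array under the floor, and dashed lines mark 2-fold. Mouse genotype ratios reach 4.62 for Dbp, whereas the leptin ratios stay between -1.13 and 0.63 in mice.

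In rats, the saline Lepmkyo/Lepmkyo liver showed the same direction with smaller differences. The 8 members above the floor on both arrays were each higher in the mutant on their brightest probe set, 1 of them by 2-fold. Among all 9817 genes, 2.99% reached 2-fold upward and 1.45% downward. The median log2 ratio of the 8 was 0.55, against 0.04 over all genes. Bhlhe41 entered only through its saline mutant signal, and Ciart had no probe set.

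Rat Dbp had 1503.0 in leptin-injected and 1087.4 in saline-injected Lepmkyo/Lepmkyo rats, against 543.5 in WT rats, on probe set 1387874_at. The saline mutant was higher than WT by a log2 ratio of 1.001, just inside the 2-fold threshold, and quantile normalization put it at 0.997, just outside. Rat Nr1d1, on 1370816_at, had 408.6 and 619.7 in the mutants, against 312.3 in WT. At 1.98-fold higher in the saline mutant it was just outside the threshold. Both genes ranked close together, Dbp at 293 and Nr1d1 at 305 from the highest ratio of 9817.

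The rat period genes followed at smaller folds. Per3 had 393.4 and 290.8 in the leptin and saline mutants, against 187.5 in WT, on 1378745_at, and was 1.55-fold higher in the saline mutant. Per2 had 1089.4 and 697.3, against 474.5 in WT, on 1368303_at, with 1.47-fold for the saline pair. Per1 had 416.4 and 540.2, against 398.2 in WT, on 1374855_at, and was 1.36-fold higher. The order of arrays thus differed within the family, since the leptin array was highest for Per2 and Per3 and the saline mutant highest for Per1.

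Among the other rat members, Hlf had 1186.6 and 1299.7 in the leptin and saline mutants, against 959.2 in WT, on 1386641_at. The other Hlf probe sets above the floor, 1385585_at and 1374709_at, had genotype log2 ratios of 0.63 and 0.57, near the 0.44 of the brightest. Tef had 844.8 and 650.3, against 593.3 in WT, on 1390819_at, with log2 ratios of 0.13 and, on 1385374_at, 0.44 for the saline pair. Nr1d2 had 2784.3 and 2782.4, against 1914.8 in WT, on 1390430_at, 1.45-fold higher in the saline mutant. On 1370541_at it had 1520.3 and 1506.0, against 1444.9 in WT. Another probe set, 1370540_at, ran the other way, with 44.1 and 23.6, against 98.4 in WT. Its log2 ratio for the saline pair was -0.02, bounded by the floor. Bhlhe41 had 91.9 and 106.9, against 37.1 in WT, so that its value depended on the floor: the log2 ratio was 0.14 as a bound and 1.53 with the floor at the 25th percentile.

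Between leptin-injected and saline-injected Lepmkyo/Lepmkyo rats, every measured member differed by less than 2-fold, where 0.237% of all 9705 genes reached 2-fold upward and 0.278% downward. Per2 was 1.56-fold higher, at rank 144 from the top, Dbp 1.38-fold, Per3 1.35-fold and Tef 1.30-fold higher. Nr1d1 was 1.52-fold lower, at rank 227 from the bottom, and Per1 1.30-fold lower. The log2 ratios of Per2 (0.64), Dbp (0.47), Per3 (0.44), Tef (0.38), Nr1d1 (-0.60) and Per1 (-0.38) were wider than the spread of 0.25 between probe sets, a measure without animal variation. Over the 8 members above the floor on both arrays the median was 0.19, against 0.01 over all genes. Hlf was at -0.13 on its brightest probe set, but at 0.11 on 1385585_at and 0.26 on 1374709_at. Nr1d2 was at 0.00 and Bhlhe41 at a bound of -0.14. Against WT, the leptin-injected rat had 3 members at 2-fold, with Dbp 2.77-fold, Per2 2.30-fold and Per3 2.10-fold higher, beside 2.83% of all 9742 genes higher and 1.61% lower. The leptin array lay nearer to the saline mutant than to WT for 6 members and nearer to WT for 3. Those 3 were Per1, Nr1d1 and Bhlhe41, the last under the floor on the leptin and WT arrays. The share over all genes is not given here.

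**Figure D3:**
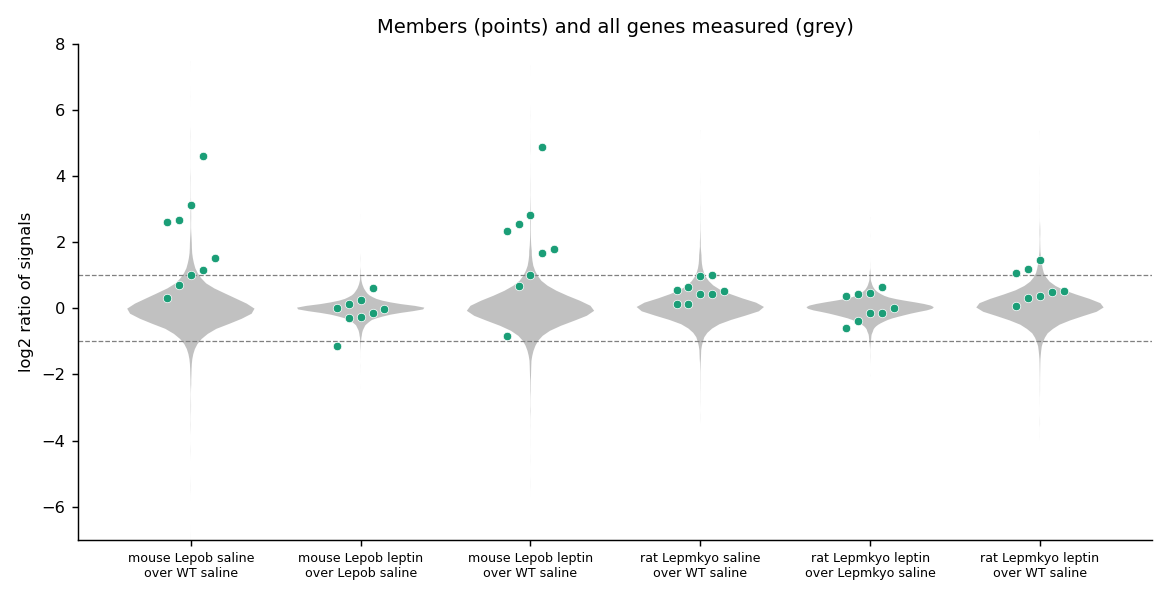
Log2 ratios of the measured members (points) over the distribution of all measured genes (grey shapes) in the 6 comparisons, with dashed lines at 2-fold. In mice, Dbp reaches 4.62 and 4.87 in the comparisons with WT. In rats, the highest member is Dbp at 1.00 and 1.47.

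Set side by side between species, 8 members were measured in both genotype comparisons, and on the brightest probe sets all 8 were higher in the mutant in each. The log2 ratio was larger in mice for 7 of the 8, with Nr1d1 the exception at 0.31 in mice and 0.99 in rats. The shares of all genes with such signs and sizes are not given here. Over all genes 2-fold ratios were also more frequent in mice, at 4.46% upward and 3.71% downward, against 2.99% and 1.45% in rats. Dbp stood at 4.62 in mice and 1.00 in rats. In the leptin comparison Nr1d1 was lower in both species, at -1.13 in mice and -0.60 in rats, and Dbp and Tef were slightly higher in both. On the brightest probe sets Per1 had opposite signs, at 0.63 in mice and -0.38 in rats. So did Per2, at -0.14 in mice and 0.64 in rats, and Per3, at -0.30 in mice and 0.44 in rats. The mouse signs of Per2 and Per3 depended on the probe set. Per2 had 0.12 on 1457350_at, and Per3 had -0.24, 0.02 and 0.09 on its dimmer probe sets above the floor. The mouse Per2 value of -0.14 was also within the spread of 0.26 between probe sets. The arrays of the species carry different probe sets, so differences in size were not tested.

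The opposite arm of the loop was read from a list of Arntl, Clock, Npas2, Cry1 and Nfil3. In the saline Lepob/Lepob mouse 3 of 5 lay 2-fold or more below WT and 0 above it, and the median log2 ratio was -1.06. Over all genes measured, 3.71% lay as far below WT and 4.46% as far above it. Arntl had 155.6 and 202.4 in the leptin and saline mutants, against 889.7 in WT, a log2 ratio of -2.14 for the saline pair, and its second probe set had -0.89. Npas2, a paralogue of Clock, had 5.2 and 6.8, against 190.8 in WT, and was at least 2.31-fold lower. Nfil3, the repressor that competes with DBP at D-boxes, had 646.6 and 810.6, against 1685.5 in WT, 2.08-fold lower in the saline mutant. On the mouse arrays the WT liver thus had the higher signals of these genes and the lower signals of Dbp and the Per genes. In saline rats 0 of 5 passed 2-fold and the median was -0.21, with Arntl at 113.6 and 195.4 in the leptin and saline mutants, against 346.5 in WT. Of these 5 genes 2 were higher in the saline mutant rat than in WT and 3 lower, with Npas2 at a log2 ratio of 0.48. After leptin the rat Npas2 signal was 259.3, against 650.5 after saline and 465.4 in WT. It was thus 2.51-fold lower after leptin than after saline, and Arntl was 1.72-fold lower. In mice Npas2 was not measured after leptin and 0 of the other 4 passed 2-fold.

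Further clock genes were mixed. Of 9 measured in saline mice (Cry2, Bhlhe40, the ROR genes, casein kinases and ubiquitin ligase subunits among the list), 2 lay 2-fold or more above WT and 0 below it, and the median was -0.06. Over all genes measured, 4.46% lay 2-fold or more above WT and 3.71% below it. The cryptochrome Cry2 was 2.17-fold higher, at 482.7 in the saline mutant against 222.4 in WT. Bhlhe40 (DEC1), the paralogue of Bhlhe41, was 2.90-fold higher, at 2500.9 against 861.1. In saline rats 0 of 7 reached 2-fold, and both genes stood at log2 ratios of -0.12 and 0.29.

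Liver transcripts known to cycle downstream of the loop were read next. Of 6 measured, 5 lay 2-fold or more above WT in the saline Lepob/Lepob mouse, and the median log2 ratio was 2.07. Over all genes measured, the share that far above WT was 4.46%. The deubiquitinase Usp2 had 1367.7 and 1552.7 in the leptin and saline mutants, against 138.8 in WT, 11.2-fold higher in the saline mutant. Cdkn1a (p21), a target of REV-ERB repression, had a 4.86-fold higher signal on its brightest probe set, with a log2 ratio of 1.27 on another. The signal of Noct was 4.26-fold higher. In saline rats 0 of 6 reached 2-fold upward and 1 downward, Noct, at 360.1 and 489.6 in the leptin and saline mutants, against 1242.1 in WT. Over all rat genes, 2.99% reached 2-fold upward and 1.45% downward. Usp2 in rats had a genotype log2 ratio of -0.18. Of the PAR bZIP targets, 4 were measured in each species and 1 passed 2-fold in saline mice, the bile acid enzyme Cyp7a1 at 2.33-fold higher on its brightest probe set. On its other probe set it had 354.4 in the saline mutant against 362.0 in WT, a log2 ratio of -0.03. In rats Cyp7a1 was 1.00-fold after saline and 2.14-fold higher after leptin.

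Signals that induce Per1 acutely were read from further lists. Of 8 glucocorticoid-induced genes in saline mice, 4 lay 2-fold or more above WT and 0 below it. Over all genes measured, these shares were 4.46% and 3.71%. The median log2 ratio of the 8 was 0.95, and 2 were lower than WT, Tat the lowest at -0.31. Those past 2-fold included Fkbp5 at 2.50-fold and the metallothioneins Mt2 at 8.75-fold and Mt1. Mt1 had 29583.2 in the saline mutant against 1852.0 in WT. In saline rats 1 of 6 was higher by 2-fold, Fkbp5 at 2.89-fold, and 1 lower, the tyrosine aminotransferase gene Tat at 6.94-fold. The median of the 6 was -0.35, with 4 below 0. Over all rat genes, 2.99% were 2-fold or more higher and 1.45% lower. The cAMP and immediate early list had 1 of 7 higher and 2 lower in saline mice, with a median of -0.05, and 1 of 7 higher and 0 lower in rats. The part of these signals in the Per1 values was not tested.

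**Figure D4:**
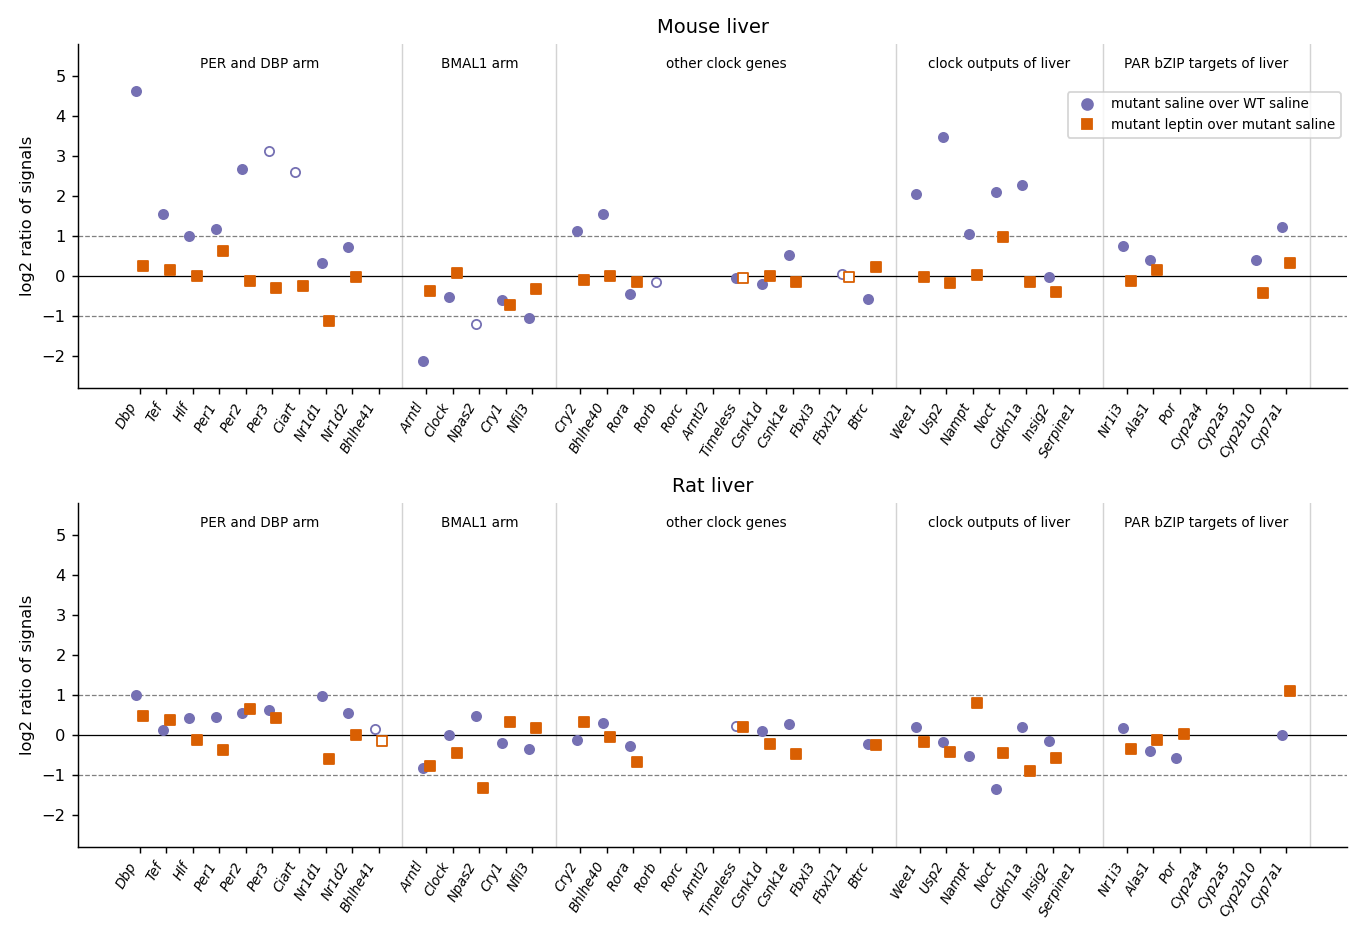
Log2 ratios of the genes of 5 clock lists in mouse liver (top) and rat liver (bottom), for mutant saline over WT saline (circles) and mutant leptin over mutant saline (squares). Open symbols are bounds with 1 array under the floor, and dashed lines mark 2-fold. In mice Dbp and Usp2 stand high and Arntl low, at 4.62, 3.48 and -2.14, while in rats the members reach 1.00 at most.

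The genes whose pattern was most like that of the arm were sought over 4 log2 ratios from the 6 arrays, by Euclidean distance to the median of 8 members, among 8059 other genes measured in both species. The 5 nearest were Mterf2 (distance 0.18), Flot2, Cdkn2c, Comtd1 and Trub2 (0.20), each higher in both saline mutants and close to 0 after leptin. Nearest to Dbp alone were Osbpl3 (0.76), Cidec, Rgs16, Rad51b and Cyp17a1 (1.26). Osbpl3 had genotype log2 ratios of 4.08 in mice and 1.29 in rats, against 4.62 and 1.00 for Dbp.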

How the data were processed

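Per the labels, Trizol-extracted liver RNA was labelled with biotin for Affymetrix arrays, with 1 array in each group. The deposited intensities are linear signals that the authors computed with MAS5, a program that scales every array to a common trimmed mean, per the submitters' processing notes (version not given in the sources used here). Dim MAS5 signals carry much noise, hence the floor. The number of arrays limits precision.

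Symbols came from the platform annotation, for the 34945 mouse and 20826 rat probe sets with exactly 1. In mice 34741 were updated to assembly GRCm38.p6. The probe set with the highest mean stood for a gene if 1 or both arrays of a comparison reached the floor. Ratios were taken over all genes, and without replicates no test was run. The calculations were tested on simulated data (Python 3.11.15, pandas 2.3.3).

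Members, lists and rules were chosen with earlier results of these data known. Named were every member, Arntl, up to 3 genes per clock list with the largest ratios past 2-fold and the 5 genes nearest in pattern. Fkbp5, Mt1, Mt2, Tat, Col3a1, Egr1, Tsc22d3, and values of a named gene in the other species, were added after their values were seen. Alternatives were quantile normalization, median centring, floors at other percentiles, log2(signal + 16) without a floor, the median over probe sets, and leaving out _s_at and _x_at probe sets.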

Additional observations from a re-analysis of the deposited data

Results flagged for a closer look

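A few list genes were at least 2-fold apart in opposite directions in the 2 species, each on 1 array per group, and the difference between species was not tested. Noct had a log2 ratio of 2.09 in the saline Lepob/Lepob mouse and -1.34 in the saline Lepmkyo/Lepmkyo rat, both over WT. For the leptin-injected mutants over WT it was 3.05 in mice and -1.79 in rats. Egr1, an immediate early transcription factor, was at -1.58 in the saline mutant mouse and 1.24 in the saline mutant rat. Tsc22d3, a glucocorticoid-induced gene, was at 1.04 in the leptin-injected mutant mouse and -1.02 in the leptin-injected mutant rat, both over WT. No member of the PER and DBP arm was 2-fold apart in opposite directions.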

How the results depend on the processing

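No paired analysis was possible because each group is 1 array, and leaving out a replicate was not possible for the same reason. Over the 7 alternatives, 330 of 360 member log2 ratios moved by less than the spread between probe sets, 30 moved further, and no 2-fold member changed sign. Many of the 330 could not move by construction. A lower floor leaves a gene above the floor on both arrays unchanged, and the median leaves a gene with 1 probe set unchanged. Leaving out _s_at and _x_at probe sets acts only where such a set was the brightest. When the floor was raised to the 75th percentile, members at least 2-fold higher numbered 4 for the saline and 3 for the leptin Lepob/Lepob mouse over WT, with medians of 1.00 and 0.83, and members at least 2-fold lower after leptin in mice numbered 0, since Nr1d1 was then not measured. Fewer genes are measured under that floor by construction. For the saline rat mutant over WT, the members at least 2-fold higher numbered 0 under quantile normalization, 2 under median centring and 2 with the floor at the 25th percentile, because Dbp, Nr1d1 and Bhlhe41 lay near 2-fold or near the floor. The log2(signal + 16) scale put Hlf in mice at 0.98 and Dbp in rats at 0.98. Median centring moved the median of all genes from -0.03 to 0.22 for the saline mutant mouse over WT, to which the member ratios under it are relative. Depth cannot be given for arrays, and values under the floor have no order.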
